A study of Rattus norvegicus with 6 samples.

Results

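The fibroblastic collagens studied here were 10 genes chosen by symbol, Col1a1, Col1a2, Col3a1, Col5a1, Col5a2, Col6a1, Col6a2, Col6a3, Col12a1 and Col14a1, which encode chains of collagens I, III, V, VI, XII and XIV. A row of that name was found for 8 of them among 18923 identifiers, and all 8 passed the filter on low counts; Col1a2 and Col6a3 were not analysed here. RNA-Seq was performed on wild-type primary chondrocytes of newborn (24 h old) female Sprague-Dawley rats at passage 1 or 2, with 3 samples per group. The CON group was kept for 24 h in high-glucose DMEM with serum and antibiotics, and the RA group for 24 h in the same medium with 1 μM all-trans retinoic acid (ATRA), which is made from vitamin A and binds nuclear receptors that control transcription. The cells are a monolayer culture without the native matrix, and it is not stated whether CON received the solvent of RA or, though the replicates are called independent, whether they came from separate animals or cultures, so p-values measure only the spread between these samples.

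Collagens are trimers of chains that wind into a triple helix. Collagen I forms the thick fibrils of skin, tendon and bone, collagen III forms thinner fibrils in compliant tissues such as skin and vessel walls, and collagen V starts collagen I fibrils and limits their width, whereas hyaline cartilage rests on fibrils of collagen II with collagens IX and XI. Collagen VI forms beaded filaments, in cartilage mainly in the pericellular matrix around each chondrocyte, and collagens XII and XIV decorate the surface of fibrils. Chondrocytes that spread on plastic lose collagen II and gain collagen I, a shift known as dedifferentiation, for which the ratio of collagen I to collagen II is the usual index.

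Between 29370025 and 38007486 reads were counted per sample. CON 1 stood apart from its group: the mean squared deviation of its counts from those of CON 2 and CON 3, relative to sampling noise, was 39.9 and 64.2, against 8.2 between CON 2 and CON 3 and 6.47 to 8.18 among the RA samples. For the 8 collagens, results that rest on CON 1 are therefore given with and without it. Values of single genes of the other lists are given with all samples only. CON 1 was the lowest of the 6 samples for 4 of the 8 collagens (Col1a1, Col3a1, Col5a1 and Col6a2), and for 31.4% of all genes tested. Chondrocyte markers were abundant: the FPKM (reads scaled to gene length and to the library total) of 10 markers, Col2a1 the highest, summed to between 6800.0 and 8923 in CON and between 4279.8 and 4618 in RA. In bulk RNA, fewer cells of a type and less RNA per cell cannot be told apart.

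Promoter sequences in RefSeq (rat assembly GRCr8) were matched for Col5a1, Col5a2 and Col6a1 among the 8 genes. They are shown because no promoter was matched for the other collagens. Col5a1 and Col5a2 encode chains of the same collagen. For Col6a1 the FPKM of the groups did not overlap, as for 32.2% of all genes tested. Each runs 5′ to 3′ on the gene's strand over 300 bases, of which the last 50 lie from the annotated start site onwards. They were searched on both strands for the CCAAT box, spelled as named. The GC box was searched as GGGCGG. The TATA box was searched as TATAAA. The core element of nuclear receptor sites was searched as AGGTCA. Matches are in capitals, and no match overlapped another. The regions are chr3:31606630-31606929 on the plus strand for Col5a1, chr9:55090102-55090401 on the minus strand for Col5a2 and chr20:11905440-11905739 on the plus strand for Col6a1.
Col5a1: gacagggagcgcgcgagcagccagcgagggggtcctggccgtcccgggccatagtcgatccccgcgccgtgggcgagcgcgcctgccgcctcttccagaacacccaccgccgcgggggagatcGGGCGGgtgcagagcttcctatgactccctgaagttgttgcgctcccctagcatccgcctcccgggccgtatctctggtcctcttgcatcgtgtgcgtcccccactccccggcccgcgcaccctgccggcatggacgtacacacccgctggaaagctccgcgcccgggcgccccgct
Col5a2: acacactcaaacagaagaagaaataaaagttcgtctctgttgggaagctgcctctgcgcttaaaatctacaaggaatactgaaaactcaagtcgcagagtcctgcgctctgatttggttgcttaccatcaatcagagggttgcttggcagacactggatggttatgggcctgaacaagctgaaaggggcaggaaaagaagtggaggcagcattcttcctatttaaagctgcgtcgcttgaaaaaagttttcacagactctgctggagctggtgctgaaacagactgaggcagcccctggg
Col6a1: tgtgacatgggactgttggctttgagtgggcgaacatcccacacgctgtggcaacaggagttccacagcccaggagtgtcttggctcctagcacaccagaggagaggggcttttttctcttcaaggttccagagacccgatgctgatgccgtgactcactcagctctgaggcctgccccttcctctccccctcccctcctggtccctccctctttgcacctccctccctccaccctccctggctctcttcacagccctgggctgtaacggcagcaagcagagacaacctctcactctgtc
The only match was a GC box in Col5a1, 127 bases before the start site. Among 33469 promoters of this length, 37.5% held CCAAT, 33.1% GGGCGG, 14.2% TATAAA and 16.2% AGGTCA. The bases G and C made up 72% of the Col5a1 promoter, 47.7% of that of Col5a2 and 59.7% of that of Col6a1.

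All 8 collagens were strongly expressed, and their order was the same in both groups. By mean FPKM over 6 samples, Col1a1 (3227) ranked 11th of all identifiers, Col6a1 (1126) 42nd, Col3a1 (1014) 49th and Col6a2 (911) 64th, followed by Col5a2 (558), Col5a1 (172), Col14a1 (127) and Col12a1 (85.7). The ranges of neighbours in this order overlapped for Col3a1 and Col6a2 in CON and for Col6a1 and Col3a1 in RA, and did not overlap for any other pair of neighbours. Together the 8 genes took between 3.00% and 3.86% of reads in CON and between 3.55% and 3.72% in RA, and CON 1 held the lowest share.

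**Figure D1:**
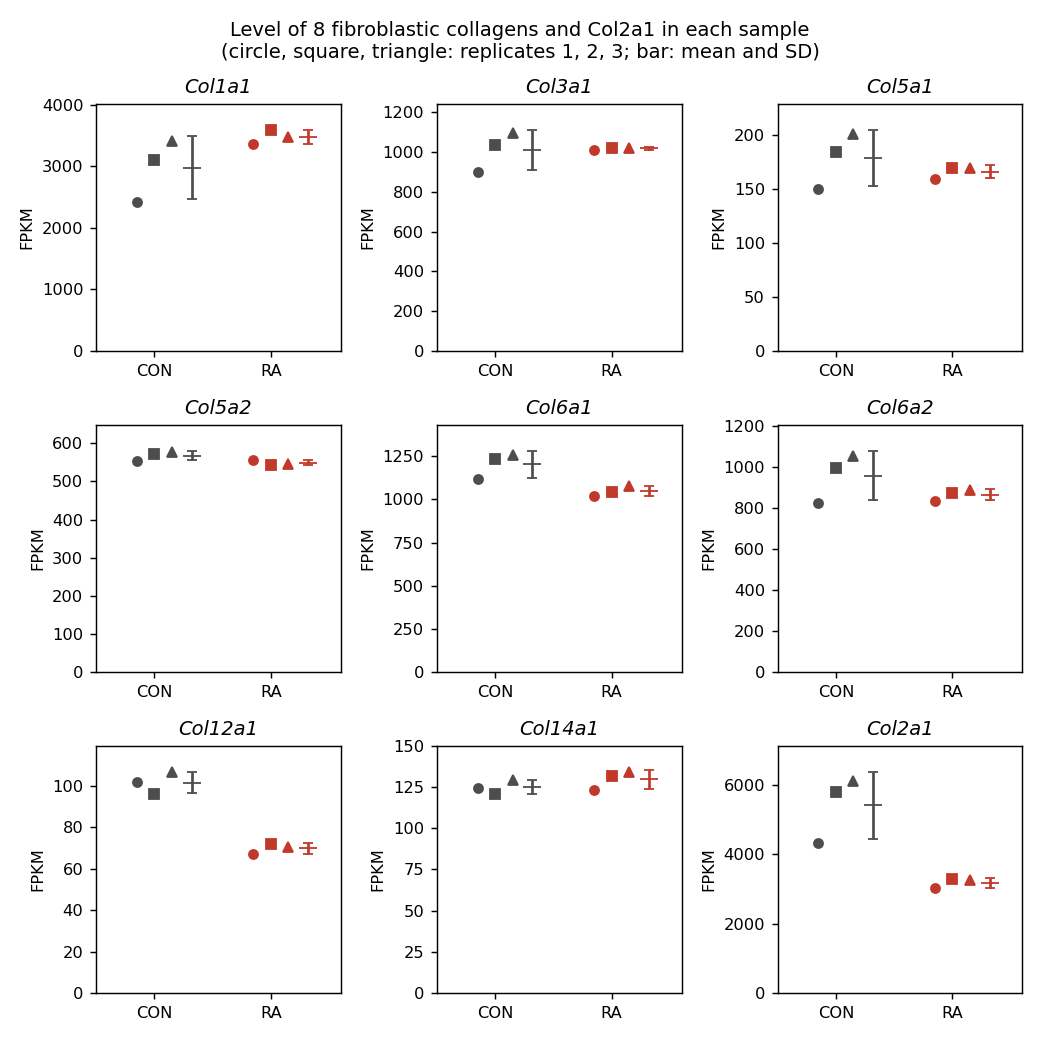
FPKM of the 8 fibroblastic collagens and of Col2a1 in each CON (grey) and RA (red) sample, with points for samples and bars for mean and SD (n = 3 each), on axes that start at 0. RA points lie below all CON points for Col6a1, Col12a1 and Col2a1 and within or across the CON range for the rest, and the circle of CON 1 is often lowest.

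Of the 8 genes, 1 passed the test of RA against CON (adjusted p below 0.05 by the quasi-likelihood test of edgeR, with Benjamini-Hochberg adjustment over 13438 genes), Col12a1, which was lower in RA. None was a DEG, which also required a log2 fold change beyond 0.58. Among all genes tested, 9.82% passed the test in either direction, 4.5% as lower in RA, and 4.96% were DEGs, so the count among the collagens was near that of genes in general. The median log2 fold change of the 8 genes was -0.089, with 6 below 0, and that of all genes tested was -0.0057. The median of the 8 genes was -0.16 without CON 1 and -0.026 without CON 3. Without CON 1, 4 of the 8 genes passed the test (Col5a1, Col6a1, Col6a2 and Col12a1), each lower in RA, beside 7.8% of all genes that did so in that direction and 8.65% as higher.

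Col1a1 encodes the α1 chain of collagen I, of which each collagen I molecule usually holds a pair. Its FPKM was 2415, 3100 and 3414 in CON samples 1, 2 and 3 and 3365, 3588 and 3481 in RA samples 1, 2 and 3. The 3 RA values lay close together near the top of the CON range, and CON 3 exceeded RA 1, so the groups overlapped. The log2 fold change was 0.21 (standard error 0.113, 95% interval -0.048 to 0.47, adjusted p = 0.301, edgeR). This interval runs from a 0.968-fold level to a 1.38-fold level. Without CON 1 the log2 fold change was 0.078 (adjusted p = 0.255, edgeR), and without CON 3 it was 0.33 (adjusted p = 0.0651, edgeR).

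Col3a1 encodes the chain of collagen III, a trimer of identical chains found with collagen I in compliant tissues. Its FPKM was 899, 1034 and 1095 in CON and 1010, 1023 and 1022 in RA. The RA samples sat in the middle of the CON range, and the log2 fold change was -0.0007 (standard error 0.0737, 95% interval -0.17 to 0.17, adjusted p = 0.996, edgeR). The sign of so small a value differed between fits, and it was -0.081 without CON 1 and 0.073 without CON 3.

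Col5a1 and Col5a2 encode the chains of the common form of collagen V. Col5a1 had FPKM of 149.8, 184 and 200.7 in CON and of 159, 169 and 169 in RA. Its RA samples lay between CON 1 and CON 2, with a log2 fold change of -0.12 (95% interval -0.35 to 0.12, adjusted p = 0.532, edgeR). Without CON 1 the value was -0.23 and passed the test (adjusted p = 0.00784, edgeR), and without CON 3 it was -0.013 (adjusted p = 0.943, edgeR). Col5a2 had FPKM of 554, 573 and 576 in CON and of 557, 544 and 546 in RA. RA 1 was above CON 1. The log2 fold change was -0.061 (standard error 0.0444, 95% interval -0.16 to 0.041, adjusted p = 0.449, edgeR), the narrowest interval among the 8 genes. The value was -0.081 without CON 1 (adjusted p = 0.0856, edgeR) and -0.040 without CON 3 (adjusted p = 0.615, edgeR).

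Collagen VI was represented by Col6a1 and Col6a2. Col6a1 had FPKM of 1117, 1235 and 1260 in CON and of 1019, 1046 and 1078 in RA. Each RA sample was below each CON sample, yet the log2 fold change of -0.21 (standard error 0.06, 95% interval -0.35 to -0.076) missed the threshold (adjusted p = 0.063, edgeR). DESeq2 gave the same change an adjusted p of 0.0461, which passed. Col6a2 had FPKM of 823, 995 and 1054 in CON and of 834, 872 and 888 in RA. CON 1 was the lowest of the 6 samples, and the other CON samples exceeded all RA samples. The log2 fold change was -0.16 (95% interval -0.37 to 0.045, adjusted p = 0.321, edgeR). Without CON 1 the values were -0.27 for Col6a1 (adjusted p = 1.88e-04, edgeR) and -0.26 for Col6a2 (adjusted p = 8.03e-04, edgeR). Without CON 3 they were -0.17 (adjusted p = 0.116, edgeR) and -0.076 (adjusted p = 0.566, edgeR).

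Collagens XII and XIV are fibril-associated collagens of similar build, and their genes differed. Col12a1 had FPKM of 102, 96.2 and 107 in CON and of 66.9, 72.1 and 70.7 in RA, without overlap. Its log2 fold change was -0.55 (standard error 0.0631, 95% interval -0.70 to -0.41, adjusted p = 0.00111, edgeR), a 0.682-fold level. It passed whichever single sample was omitted (6 fits), with values from -0.60 to -0.51. Col14a1 had FPKM of 124, 121 and 129.5 in CON and of 123, 132 and 134 in RA. These ranges overlapped, and the log2 fold change was 0.042 (standard error 0.0605, 95% interval -0.097 to 0.18, adjusted p = 0.716, edgeR). This small value was 0.013, 0.028 and 0.015 without CON 2, RA 2 and RA 3, and 0.078 and 0.084 without CON 3 and RA 1. The intervals of Col12a1 and Col14a1 did not overlap, and the difference itself was not tested. Groups did not overlap in FPKM for 2 of the 8 collagens, Col6a1 and Col12a1, and for 32.2% of all genes tested.

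**Figure D2:**
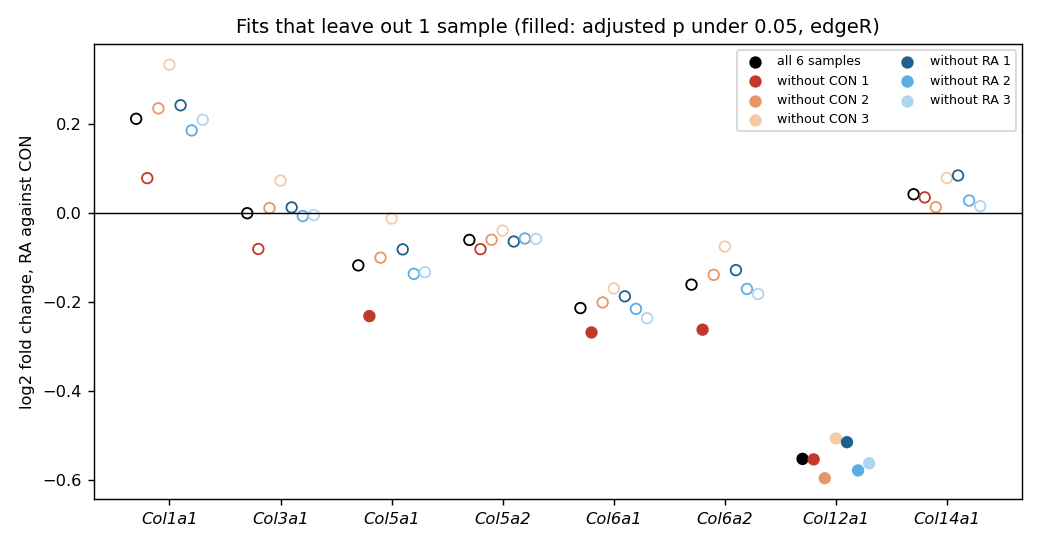
Log2 fold change of RA against CON for each fibroblastic collagen (x axis) with all 6 samples (black) and with each sample left out, filled where adjusted p was below 0.05 in edgeR. Col12a1 is filled in every fit, between -0.60 and -0.51, whereas Col5a1, Col6a1 and Col6a2 are filled only without CON 1.

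The collagens of cartilage fibrils gave a different picture in the same fit. Over all genes tested, 4.5% passed the test as lower in RA, and 4.96% were DEGs in either direction. All 7 genes of collagens II, IX, XI and XXVII were lower in RA and passed the test, and 6 were DEGs. Their log2 fold changes ran from -1.43 for Col27a1 to -0.52 for Col9a3, with a median of -0.76. Col9a1, Col9a2 and Col9a3, which encode the fibril-associated collagen of cartilage, had -0.86, -0.76 and -0.52, beside -0.55 for Col12a1. All 7 passed the test without CON 1 as well, beside 16.5% of all genes in either direction. With all samples, Col9a3 was nearest the threshold (adjusted p = 0.0457, edgeR). The difference from the fibroblastic collagens was not tested.

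**Figure D3:**
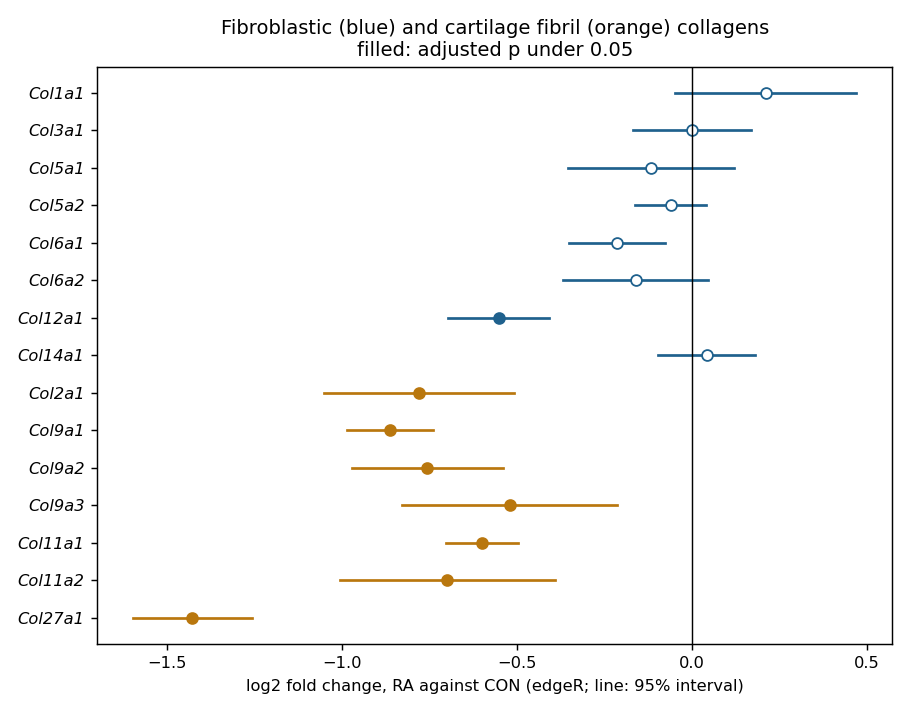
Log2 fold change of RA against CON (points, edgeR) with 95% intervals (lines) for 8 fibroblastic collagens (blue) and 7 cartilage fibril collagens (orange), filled where adjusted p was below 0.05. The orange points run from -1.43 to -0.52 and the blue ones from -0.55 for Col12a1 to 0.21 for Col1a1.

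The ratio of each fibroblastic collagen to Col2a1 was then examined as the index of dedifferentiation. Col2a1 had FPKM of 4328, 5797 and 6135 in CON and of 3023, 3281 and 3252 in RA. The ratio of Col1a1 to Col2a1 in FPKM was 0.558, 0.535 and 0.557 in CON and 1.11, 1.09 and 1.07 in RA. CON 1 did not stand apart in this ratio, and all RA samples were above all CON samples (exact permutation test, two-sided, p = 0.1, the smallest that 3 against 3 samples allow). Scaled to Col2a1 in each sample, Col1a1 rose by a log2 value of 0.99 (95% interval 0.74 to 1.24, adjusted p = 3.88e-04, limma over 13437 genes). Of the 8 collagens, 7 rose relative to Col2a1, by 0.55 (Col6a1) to 0.99 (Col1a1). The exception was Col12a1, at 0.21 (95% interval -0.13 to 0.56, adjusted p = 0.211, limma), which passed the test without CON 1, at 0.37, and was at 0.12 without CON 2 (adjusted p = 0.546, limma). With Acan, the aggrecan gene, as the reference in place of Col2a1, Col12a1 also passed (0.96, adjusted p = 3.37e-06, limma), as did all 8 collagens and 96.8% of all genes, and the median over all genes was 1.50. Relative to Col2a1, 78% of all genes tested rose and 0.506% fell, and the median over all genes was 0.76. Col1a1 (0.99), Col14a1 (0.81) and Col3a1 (0.77) lay above that median, and Col5a2 (0.70), Col5a1 (0.66), Col6a2 (0.61), Col6a1 (0.55) and Col12a1 (0.21) lay below it. The interval of Col1a1 included the median. Without CON 1, all 8 collagens and 88.7% of all genes rose relative to Col2a1, with a median of 0.92 over all genes, and Col1a1 was at 1.00.

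Ratios within a sample were also formed between fibroblastic collagens. Col5a1 to Col5a2 was 0.27, 0.321 and 0.348 in CON and 0.285, 0.311 and 0.309 in RA, and the groups overlapped (exact permutation test, two-sided, p = 0.8). Col6a1 to Col6a2 was 1.36, 1.24 and 1.20 in CON and 1.22, 1.20 and 1.21 in RA, also with overlap (exact permutation p = 0.5). Col3a1 to Col1a1 was 0.372, 0.334 and 0.321 in CON and 0.3, 0.285 and 0.294 in RA. The sum of Col6a1 and Col6a2, relative to Col1a1, was 0.803, 0.72 and 0.678 in CON and 0.551, 0.535 and 0.565 in RA. Both of these ratios were lower in every RA sample than in every CON sample, by log2 values of -0.22 and -0.41, at the smallest p that the design allows (exact permutation p = 0.1 each, 0.2 after Benjamini-Hochberg adjustment over 4 ratios). Without CON 1 the log2 differences were -0.16 and -0.35. The ratios of Col1a1 to Col1a2 and of Col6a3 to Col6a1 were not analysed here.

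**Figure D4:**
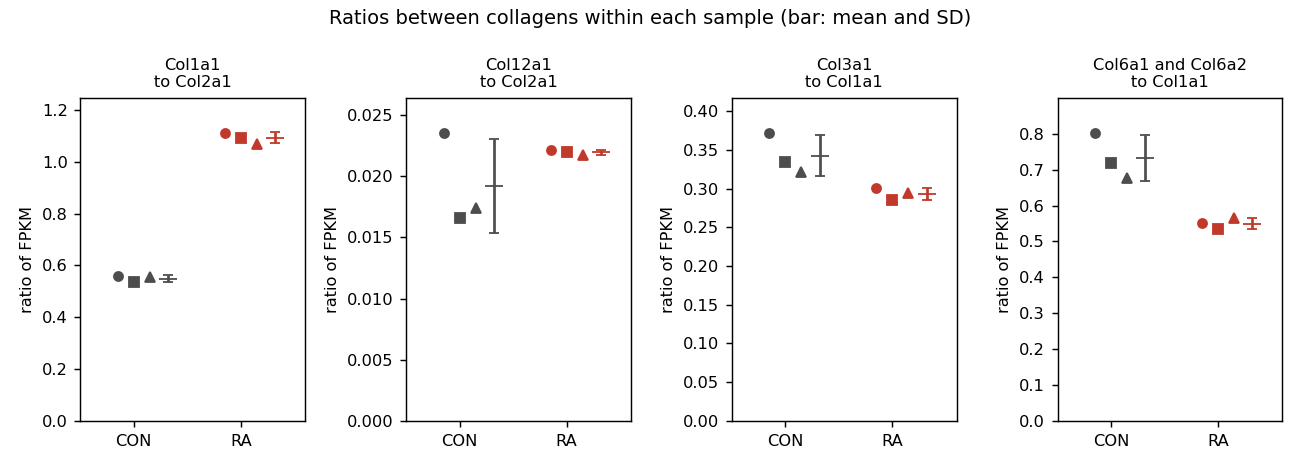
Ratios of FPKM within each CON (grey) and RA (red) sample, with bars for mean and SD (n = 3 each), on axes that start at 0. Col1a1 to Col2a1 is near 0.55 in CON and 1.09 in RA, Col12a1 to Col2a1 overlaps between groups with CON 1 at 0.0236, and both ratios to Col1a1 are lower in RA.

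The genes that build and cross-link collagen fibrils were then counted from lists chosen with earlier results of these data known. Over all genes tested, 9.82% passed the test (5.31% as higher and 4.5% as lower in RA), and 16.5% did so without CON 1. Of 16 tested genes of procollagen folding and hydroxylation, 2 passed the test, both lower in RA, namely P3h1, a prolyl 3-hydroxylase, and Serpinh1, the collagen chaperone HSP47 (log2 fold changes -0.24 and -0.25), and the median was -0.13. None of the 16 was a DEG, and without CON 1 the number that passed was 8. Among 11 tested genes of procollagen processing and cross-linking, 3 passed the test as higher and 1 as lower in RA, and the median over the 11 was 0.15, with 8 above 0. Lox, the lysyl oxidase that starts collagen cross-links, had 294 ± 13.1 FPKM in CON and fell to 193 ± 8.97 in RA (SD, n = 3 each), by a log2 value of 0.62. Its paralog Loxl1, known for its part in elastic fibres, had 77.3 ± 18.7 FPKM in CON and rose to 149 ± 5.6 in RA (SD, n = 3 each), by a log2 value of 0.93.

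Partners of fibroblastic fibrils also moved in both directions. Over all genes tested, 5.31% passed the test as higher and 4.5% as lower in RA, and 16.5% passed without CON 1. Without CON 1, 10 of the partners passed the test. With all samples, 2 of 18 tested partners passed as higher and 5 as lower in RA, with a median log2 fold change of -0.20. The 3 DEGs were lower, namely Postn (periostin) at -1.28, Fmod (fibromodulin, a small proteoglycan that binds collagen) at -1.01 and Tgfbi, which encodes a secreted adhesion protein, at -0.66. Fn1 (fibronectin), higher in RA than any of the 8 collagens at 6524 ± 162 FPKM (SD, n = 3), had a log2 fold change of 0.28 and passed the test. Of 11 tested collagen receptors, 4 passed as higher and 2 as lower. Itga2, a chain of an integrin that binds collagen I, rose by a log2 value of 1.78 at a low level (0.287 ± 0.05 to 0.989 ± 0.23 FPKM, SD, n = 3 each), and Cspg4, a proteoglycan that binds collagen VI, fell by 0.65. Without CON 1, 10 of these receptors passed the test, in the fit in which 16.5% of all genes did. Of 17 genes known to regulate type I collagen transcription, 4 passed the test, all higher in RA (Ccn2, Egr1, Twist1 and Prrx1), with log2 fold changes from 0.43 to 0.55 and none a DEG. The median was 0.22, and 7 passed without CON 1.

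Markers of other cells that make fibroblastic collagens were measured beside these results. For comparison, 5.31% of all genes tested passed the test as higher and 4.5% as lower in RA, and 4.96% were DEGs. Of 13 fibroblast and perichondrium markers, 4 passed the test as higher (Pdgfra, S100a4, Prrx1 and Twist1) and 1 as lower (Gli1, at -0.84, the only DEG), and Prrx1 and Twist1 also stand in the list of regulators. Their summed FPKM was 3575 to 4354 in CON and 4513 to 4643 in RA, most of it from Vim, which chondrocytes also express. Of 6 markers of myofibroblasts and smooth muscle, Acta2 fell by a log2 value of 0.83, and Tagln was the most abundant. Of 5 tested osteoblast markers, Ibsp rose by 1.47 from 0.55 ± 0.109 FPKM (SD, n = 3) and Alpl, the most abundant, fell by 0.42, while the counts of Bglap and Dmp1 were too low for the test. The summed FPKM was 8.41 to 9.65 in CON and 8.44 to 8.73 in RA for 7 osteoblast markers, and 31.2 to 41.0 and 36.5 to 40.3 for 5 tenocyte markers, with Scx the most abundant. No tested tenocyte marker (4 genes) passed the test with all samples, and 2 passed without CON 1, beside 16.5% of all genes. The sums were 13.2 to 14.8 and 16.1 to 17.5 for 8 macrophage markers, led by Cd14, 5.46 to 8.02 and 6.18 to 6.83 for 4 endothelial markers, led by Egfl7, and 4.46 to 6.11 and 2.87 to 3.87 for 5 skeletal muscle markers, led by Tnnt3, without a marker at 0 in all samples. The macrophage and endothelial markers Ptprc, Adgre1, Itgam, C1qa, C1qb, Cdh5 and Kdr were also too low for the test. Those tested were Cd14, Cd68 and Csf1r (log2 fold changes 0.23, 0.27 and 0.91) for macrophages and Tek and Egfl7 (0.15 and -0.12) for endothelium. Of the tested macrophage (3) and endothelial (2) markers none passed the test, and among 3 muscle markers Myod1 rose by 1.93, at 0.366 ± 0.0768 FPKM in RA (SD, n = 3), and Tnnt3 fell by 1.00. The part of the fibroblast markers in the levels of the collagens was not tested.

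The genes whose profile over the 6 samples was most like that of each collagen were found by the root mean square difference of log2 CPM (counts scaled to the library total), each gene centred on its own mean, over 8372 genes with a mean FPKM of at least 5. The 3 nearest genes were Dgcr6, Gnptg and Eme2 for Col1a1, Sdk2, Sidt2 and Iqsec1 for Col5a1, and Fam219b, Gosr2 and Rbm33 for Col5a2. They were Gmppa, Hmox1 and Gas6 for Col6a1, Mtss2, Ggcx and Cyba for Col6a2, Foxo1, Aldh1l2 and Neo1 for Col12a1, and Wdr24, Nop2 and Kmt2a for Col14a1. The differences ran from 0.0108 (Gmppa) to 0.0476 (Neo1), against medians over all those genes of 0.13 to 0.306, and no collagen was among the 3 nearest of another.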

How the data were processed

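Poly(A) RNA was sequenced in 6 samples. The authors deposited for each sample an unnormalized count of reads for every gene (whole numbers) and the FPKM, which the authors scaled by gene length and total count. The submitters' processing notes name HISAT2, HTSeq 0.13.5 and the build Rnor_6.0. The annotation, the strand setting and the rule for shared reads are not given in the sources used here. The study took fold changes from ratios of FPKM, with a false discovery rate or p-value threshold of 0.05 and a log2 fold change beyond 0.58, and names Student's test for comparisons of groups in general, without saying which test gave the p-values of the RNA-Seq. Since counts were deposited, edgeR 4.0.16 was used (R 4.3.3, TMM, glmQLFit and glmQLFTest, all samples, no covariates, filterByExpr with a minimum count of 10). Intervals were derived from the F statistic. Ratios to Col2a1 were tested with limma 3.58.1 (trend) on log2 CPM. A symbol with several identifiers was taken at the one with the highest mean count. The text names all 8 collagens found, DEGs of the lists (at most 3 per direction), the most abundant gene of each marker list and the 3 nearest profiles, which for Col3a1 are not reported here. Genes of the lists that passed the test without being DEGs were named after their values were seen. The collagens and lists were chosen with earlier results of these data known. The statistics were tested on simulated data. Alternatives were DESeq2 1.42.0, other scalings, filters and pseudocounts (0.1 and 1) for limma on log2 FPKM, a replicate block and each sample left out. A count of 3 corresponds to 0.0789 to 0.102 CPM, for counting error only.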

Additional observations from a re-analysis of the deposited data

How the results depend on the processing

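CON and RA samples share replicate numbers, but the deviations of same-numbered samples from their group means correlated at 0.093, -0.012 and 0.012, so the numbers were not treated as pairs. With a replicate block, 2 of the 8 collagens passed the test (Col6a1 in addition, adjusted p = 0.0258, edgeR), 1 tenocyte marker did, and 7 collagens still rose relative to Col2a1. DESeq2 called 2 of the 8 as well, with Col6a1 at an adjusted p of 0.0461. With 1 sample omitted at a time, 1 to 4 of the 8 passed, and between 657 and 2242 genes of all, and the median of the 8 ran from -0.16 to -0.026. Without CON 1, a choice made after seeing the data, 16.5% of all genes passed, against 9.82% with all samples. The lists of folding genes, collagen receptors, regulators, myofibroblast markers and tenocyte markers then held 8, 10, 7, 2 and 2 genes that passed. With all samples they held 2, 6, 4, 1 and 0, of 16, 11, 17, 6 and 4 genes tested. Col3a1 changed sign at 0.013 with total count only, 0.0007 without a filter, 0.018 in both limma fits on log2 FPKM and 0.0049 with the block, and ranged from -0.081 to 0.073 when single samples were omitted. The log2 difference of Col5a1 to Col5a2 lay between -0.15 and 0.034. Of 120 values of single collagens under alternatives, 107 kept direction and side of the threshold. Exact permutation of the ratios to Col2a1 gave 0 calls, since 3 against 3 samples cannot go below p = 0.1.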

Other observations

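Other interstitial and fibril-associated collagens were present at lower levels than the collagens of the report. Of 8 tested genes, Col16a1 was lower in RA (log2 fold change -0.51, adjusted p = 0.00854, edgeR) and Col7a1, the anchoring fibril collagen, was higher (1.05, adjusted p = 0.0353, edgeR) with CON at 0.169 ± 0.0552 FPKM and RA at 0.353 ± 0.0266 (SD, n = 3 per group). Col5a3, another chain of collagen V, had a log2 fold change of 0.31 (95% interval 0.022 to 0.59, adjusted p = 0.179, edgeR). The median over the 8 genes was -0.47 and lay between Col22a1 (-0.50) and Col20a1 (-0.43). Both had at most 24 reads in any sample and wide 95% intervals (-1.80 to 0.79 and -1.62 to 0.76, edgeR).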
